A study of Mus musculus with 14 samples.

Results

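Distal H3K9ac regions lost in UUO were 1477 autosomal regions of mouse kidney that carried an H3K9ac peak in both control lists, in none of the 4 lists from kidneys with unilateral ureteric obstruction (UUO), and an H3K9cr peak in at least 1 library. The peaks of the 6 H3K9ac lists were pooled and merged where they overlapped, which gave 42606 regions, and 20908 of these were distal, that is, more than 3 kb from both ends of every annotated gene. Of the distal regions, 4660 had a peak in both control H3K9ac lists and 4474 of those also had H3K9cr in at least 1 library. The 1477 regions were 33.0% of these 4474, and 989 regions (22.1%) had a peak in all 4 UUO lists and are called retained regions here. The lost regions were chosen by their measured H3K9ac peaks, so the loss of H3K9ac itself is a description and carries no test. H3K9cr entered the choice only as a peak in any of 8 libraries.

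The kidneys came from wild type (WT) mice and from mice with a germline deletion of ACSS2 in all cells (ACSS2-/-, made with CRISPR/Cas9), either as controls or after UUO, in which the left ureter was tied and cut. The methods give C57BL/6J mice aged 6 to 8 weeks and a sham operation for the surgical controls, and the time from obstruction to harvest is not given for these libraries in the sources used here. For H3K9cr, each of the 4 groups (WT control, ACSS2-/- control, WT UUO and ACSS2-/- UUO) was represented by 2 libraries. For H3K9ac there were 2 libraries per UUO group but a single one per control group. The tissue was whole kidney, so fewer cells of a type and less mark per cell cannot be told apart. The labels do not say whether libraries with the same number shared an animal, and differences between libraries may be technical.

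Each library was deposited as a list of peak positions with no height, so a region either has a peak or has none, and the length of the peak is the only size that can be given. Read depth is unknown. The control H3K9ac lists held 25585 and 32760 peaks and the UUO lists 15988 to 24571, whereas the H3K9cr lists held 32945 to 45014 in control and 27530 to 36734 in UUO. Peaks on chromosome Y were present in both control H3K9ac lists, in 1 of 4 UUO H3K9ac lists, in 3 of 4 control H3K9cr lists and in 2 of 4 UUO H3K9cr lists. In 4 of the 14 lists the mouse number in the peak names was not the number in the label.

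Acetylation of lysine 9 of histone H3 marks the promoters and distal regulatory elements of active genes, and crotonylation of the same lysine is another acyl mark found at active chromatin. ACSS2 is an enzyme that makes acyl-CoA from short-chain fatty acids such as acetate and crotonate, and so supplies donors for histone acylation. In the obstructed kidney, tubular epithelium is injured and the interstitium fills with immune cells and matrix.

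Few of the lost regions lay over an annotated start of transcription, and those that did are shown for their sequence. RefSeq windows of 300 bases, from 250 bases before to 50 after a start, touched 29 of the 1477 lost regions (31 windows). They touched 405 of the 989 retained regions and 735 of all 20908 distal regions. Wholly inside 17 lost regions lay 18 windows. From these, 9 windows of protein-coding genes in regions with H3K9cr in all 4 control libraries were taken. The 9 need not be all such windows. Letters below are the 250 bases before the start for 6 of the 9, picked after their values were seen, from the RefSeq windows on GRCm38.p6 and on the strand of the gene, with each CG dinucleotide in capitals, since the numbers of CG are compared after them. The windows are those of Limch1, an actin-binding protein (chr5:66968178-66968427, plus strand), Plekhg5, a guanine nucleotide exchange factor (chr4:152096469-152096718, plus), Rbm47, an RNA-binding protein (chr5:66098180-66098429, minus), Slco4a1, an organic anion transporter (chr2:180460728-180460977, plus), Abcg2, an efflux pump for urate and drugs in the proximal tubule (chr6:58596422-58596671, plus), and Dab1, an adaptor of reelin signalling (chr4:104367288-104367537, plus).
Limch1: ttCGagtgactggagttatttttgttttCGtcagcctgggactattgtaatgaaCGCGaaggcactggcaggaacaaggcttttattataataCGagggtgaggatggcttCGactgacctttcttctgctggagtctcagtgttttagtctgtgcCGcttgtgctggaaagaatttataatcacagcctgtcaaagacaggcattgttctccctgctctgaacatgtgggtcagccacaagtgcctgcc
Plekhg5: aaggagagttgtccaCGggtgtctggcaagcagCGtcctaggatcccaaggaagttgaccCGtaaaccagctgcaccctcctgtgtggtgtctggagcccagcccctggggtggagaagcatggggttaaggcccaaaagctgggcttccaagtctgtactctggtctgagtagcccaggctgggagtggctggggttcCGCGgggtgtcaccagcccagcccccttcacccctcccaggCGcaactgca
Rbm47: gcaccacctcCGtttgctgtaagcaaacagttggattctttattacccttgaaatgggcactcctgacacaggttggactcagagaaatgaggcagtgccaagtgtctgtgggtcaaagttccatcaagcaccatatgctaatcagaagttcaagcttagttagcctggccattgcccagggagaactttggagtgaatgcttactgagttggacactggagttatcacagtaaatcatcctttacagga
Slco4a1: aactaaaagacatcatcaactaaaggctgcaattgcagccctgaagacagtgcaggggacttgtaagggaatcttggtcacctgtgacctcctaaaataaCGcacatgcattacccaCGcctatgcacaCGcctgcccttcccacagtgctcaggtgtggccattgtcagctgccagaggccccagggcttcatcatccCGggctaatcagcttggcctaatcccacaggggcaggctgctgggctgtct
Abcg2: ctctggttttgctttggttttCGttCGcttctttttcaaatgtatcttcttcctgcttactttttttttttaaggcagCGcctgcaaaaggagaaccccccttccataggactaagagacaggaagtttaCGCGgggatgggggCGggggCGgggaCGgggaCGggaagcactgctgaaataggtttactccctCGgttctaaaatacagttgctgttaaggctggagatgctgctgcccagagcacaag
Dab1: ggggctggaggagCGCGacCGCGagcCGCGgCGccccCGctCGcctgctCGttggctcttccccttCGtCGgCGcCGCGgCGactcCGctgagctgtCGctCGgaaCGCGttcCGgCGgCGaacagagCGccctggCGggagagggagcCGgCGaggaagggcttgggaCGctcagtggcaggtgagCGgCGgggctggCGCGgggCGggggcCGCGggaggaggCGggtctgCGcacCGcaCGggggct
The stretches of Rbm47 and Slco4a1 held 1 and 4 CG dinucleotides, those of Plekhg5, Limch1 and Abcg2 held 6, 7 and 10, and that of Dab1 held 40. Dab1 was thus the CG-rich exception among the 6. Over whole windows, the median number of CG was 5 in the 31 windows over lost regions (middle range 3 to 9), 19 in the 494 windows over retained regions (11 to 29) and 7 in all 32851 windows (3 to 20). At least 10 CG were present in 25.8% of the windows over lost regions, 80.4% of those over retained regions and 43.5% of all.

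The 6 windows were picked for H3K9cr in all 4 control libraries, and in UUO the mark was present at each of these 6 in 3 or 4 libraries. Of the 9 windows taken, 3 are not shown, and of these 4931406C07Rik had it in 4 UUO libraries, Kazn in 3 and Usp54 in 1. The region over the Abcg2 start had H3K9ac peaks of 901 bp in the WT control and 451 bp in the ACSS2-/- control and had H3K9cr in 4 of 4 control and 4 of 4 UUO libraries. The regions over the starts of Plekhg5 and Rbm47 also had H3K9cr in all 8 libraries, and those of Limch1, Slco4a1 and Dab1 had it in 4 of 4 control and 3 of 4 UUO libraries. A search of both strands of the 31 windows found TGANTCA, the AP-1 motif, in 2 windows (6.45%, against 7.81% of all windows). CAAAGTCCA, a direct repeat bound by HNF4 and COUP-TF, was found in 1 (3.23%, against 0.475%) and ACATTCC, the TEAD motif, in 1 (3.23%, against 3.85%). TCAAGGTCA, an ERR motif, and the ETS motifs ACCGGAAGT and CCGGAAG, of which the first overlaps the second, were found in none (0.423%, 1.1% and 8.86% of all windows). These counts describe the letters of the windows and say nothing about binding.

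The H3K9ac peaks that were absent in UUO were short in control. Over the 1477 lost regions the median peak was 557 bp in the WT control (311 to 3848) and 870 bp in the ACSS2-/- control (355 to 6252), whereas over retained regions it was 1575 and 2144 bp. The ACSS2-/- control peak was the longer of the pair in both sets. Regions with a peak in 0, 1, 2, 3 and 4 UUO lists numbered 1477, 968, 613, 427 and 989, and their median control length, taken as the mean of both control peaks, was 741.5, 912.2, 1063, 1283 and 1895 bp. Each additional UUO list thus went with a longer control peak. When the regions were cut into 10 groups of like number by control length, 62.9% of the shortest group were lost and 0.670% retained, and of the longest group 3.57% were lost and 68.3% retained.

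**Figure D1:**
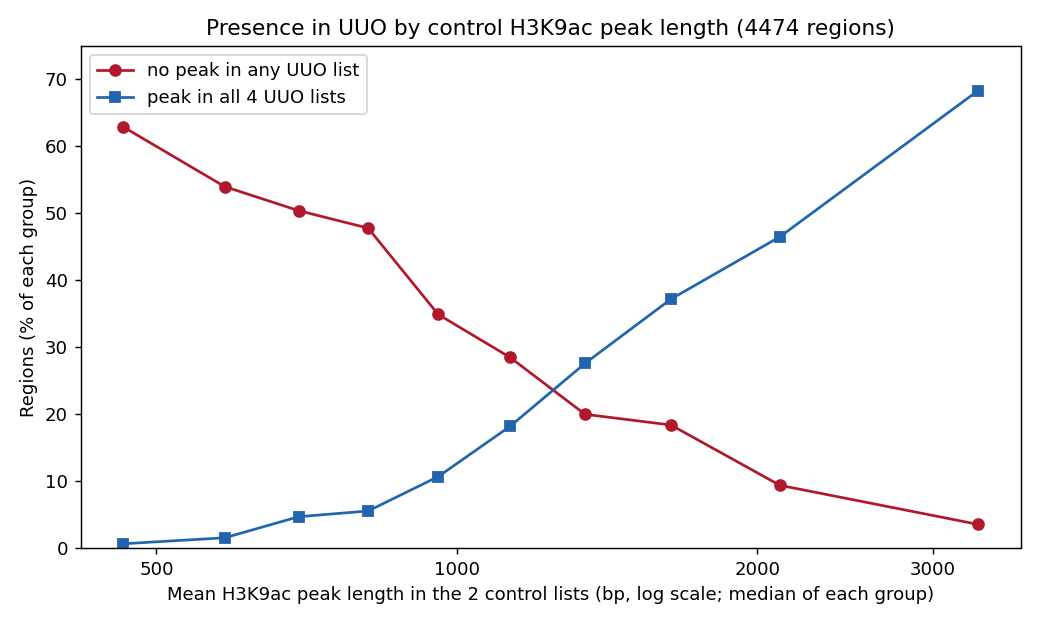
Share of the 4474 distal regions with peaks in both control H3K9ac lists that had no peak in any UUO list (red circles) or a peak in all 4 (blue squares), for 10 groups of regions ordered by mean control peak length (x axis, bp, log scale). The share lost falls from 62.9% to 3.57% and the share retained rises from 0.670% to 68.3%.

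Just outside the rule stood 968 regions with a peak in exactly 1 UUO list, and in 685 of them (70.8%) that list was ACSS2-/- UUO replicate 2, the longest UUO list and the 1 with chromosome Y peaks. The other 3 UUO lists were the only one in 59, 110 and 114 regions. Without ACSS2-/- UUO replicate 2 the number of lost regions was 2173, and with that library as the only UUO library it was 1820. With every list cut to the same number of its longest peaks it was 414. The number of lost regions thus moved with the length of the lists, and what part list length or the difference in chromosome Y peaks had in the loss was not tested. By distance, 145 of 479 regions (30.3%) 3 to 4 kb from a gene end and 167 of 562 (29.7%) 2 to 3 kb from one were absent in UUO, the latter being outside the rule.

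To learn whether crotonylation went with acetylation, H3K9cr was read over the same regions. An H3K9cr peak was present at 72.4% and 78.3% of the lost regions in the WT control libraries and at 87.7% and 79.5% in the ACSS2-/- control libraries. After UUO the shares were 56.8% and 39.4% in WT and 49.8% and 41.2% in ACSS2-/- kidneys. Every control library lay above every UUO library. The mean was 79.5% ± 6.30 (SD, n = 4) in control and 46.8% ± 8.07 (SD, n = 4) in UUO, a difference of 32.7 percentage points, and it was 27.2 points within WT and 38.1 within ACSS2-/-.

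Of the 989 retained regions, 97.9% to 99.6% had H3K9cr in the control libraries and 98.9% to 99.8% in the UUO libraries. Presence was near its ceiling there in both conditions, and the control H3K9ac peaks were longer, so these regions do not show whether the amount of H3K9cr changed. Over all 20908 distal H3K9ac regions the mean share was 41.7% ± 6.29 (SD, n = 4) in control and 32.6% ± 4.93 (SD, n = 4) in UUO, a difference of 9.14 points, and the libraries of both conditions overlapped. Over all distal regions of H3K9cr itself, the mean share was 37.4% and 27.3%. Over the 4474 regions with H3K9ac peaks in both controls, which include the lost ones, the share was 82.3% to 92.8% in control and 67.9% to 79.3% in UUO. There too every control library lay above every UUO library, with a difference of means of 14.7 points. No p is given, because the regions were picked for H3K9ac and are not replicates of a condition.

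**Figure D2:**
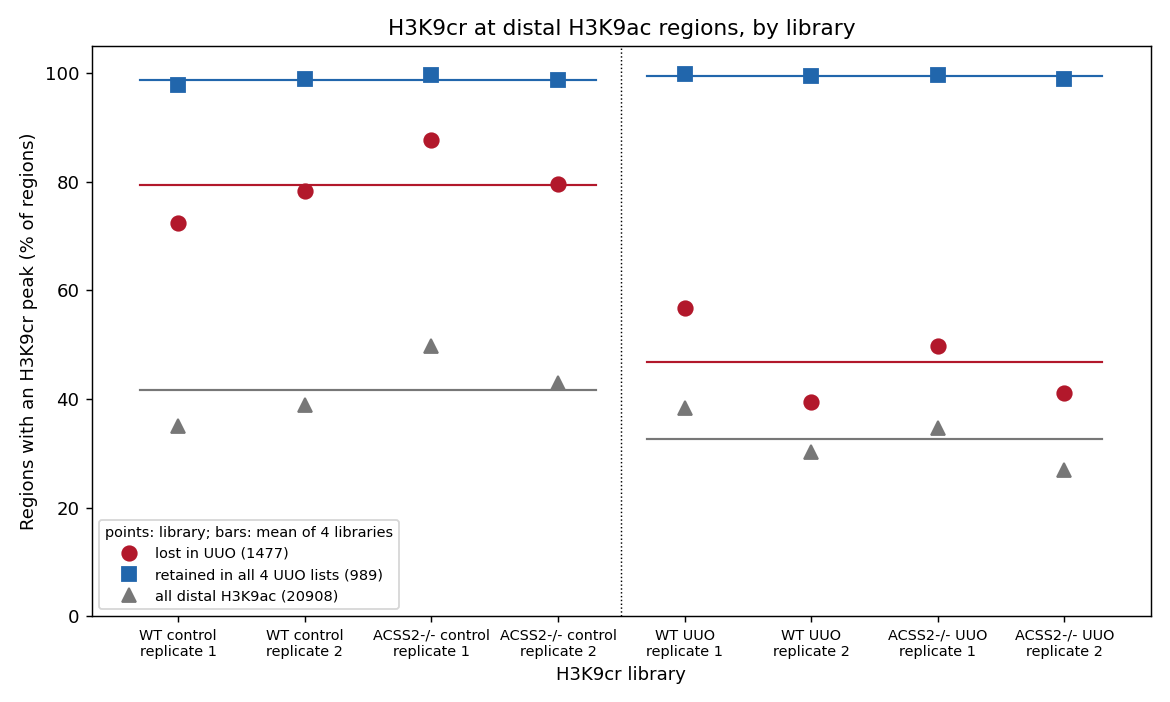
Share of regions with an H3K9cr peak (y axis, %) in each of the 8 H3K9cr libraries (x axis), for regions that lost H3K9ac in UUO (red circles), retained regions (blue squares) and all distal H3K9ac regions (grey triangles), with bars at the mean of 4 libraries. The red points fall from 72.4 to 87.7% in control to 39.4 to 56.8% in UUO, and the blue points stay above 97%.

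Peak length, list length and chromosome Y peaks differed between the groups compared, and their part in the difference was not tested. Values within each are as follows. The 4474 regions were also cut into 4 groups by control length. In the shortest group, the lost regions had H3K9cr in 72.7% of region and library pairs in control and 44.7% in UUO, whereas the 17 retained regions of that group had 82.4% and 97.1%. In the longest group the lost regions had 96.5% and 59.8%, and the retained regions 99.7% and 99.7%. WT UUO replicate 1 had 36734 H3K9cr peaks and a share of 56.8%, and the WT control lists had 32945 and 36485 peaks and shares of 72.4% and 78.3%. Among libraries with chromosome Y peaks the share was 78.3% to 87.7% in the 3 control and 49.8% to 56.8% in the 2 UUO libraries, and among those without, it was 72.4% in 1 control and 39.4% to 41.2% in 2 UUO libraries. Within 3 kb of any RefSeq start lay 70 lost regions (4.74%) but 423 retained ones (42.8%). Without those, 1407 lost regions had H3K9cr at 79.4% in control and 46.8% in UUO, and 566 retained regions at 98.5% and 99.2%.

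The number of libraries with H3K9cr varied widely among the lost regions. Of the 1477, 1111 (75.2%) had an H3K9cr peak in at least 1 UUO library and 300 (20.3%) had it in all 4, against 75.1% and 27.3% of all 13796 distal H3K9ac regions with H3K9cr. The 13796 also hold regions without H3K9ac in the controls. Among the 4474 regions with H3K9ac in both controls, which include the lost ones, the shares were 89.5% and 54.6%. The share with H3K9cr in at least 1 UUO library was thus near that of the 13796 and below that of the 4474. The rule fixes H3K9ac at no UUO list, and the UUO H3K9cr lists were longer than the UUO H3K9ac lists, so these shares do not compare the marks. Fewer UUO than control libraries had H3K9cr at 996 lost regions (67.4%, against 48.8% of the 13796 and 36.5% of the 4474). As many had it at 374 (25.3%) and more at 107 (7.24%, against 21.3% and 7.82%). H3K9cr was present in all 8 libraries at 272 lost regions (18.4%, against 21.7% of the 13796 and 50.9% of the 4474). It was absent from all 4 UUO libraries at 366 (24.8%, against 24.9% and 10.5%). Among retained regions, fewer UUO than control libraries had H3K9cr at 12 of 989 (1.21%).

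At 113 lost regions (7.65%) each of the 4 control libraries had H3K9cr and none of the UUO libraries did, which was so for 474 of all 13796 distal H3K9ac regions with H3K9cr (3.44%). Among the 4474 regions with H3K9ac in both controls, which include the lost ones, it was so for 141 (3.15%). The opposite pattern, no control library and all 4 UUO libraries, occurred at 0 lost regions, against 118 of 13796 (0.855%) and 8 of the 4474 (0.179%). Like the lost regions, the 4474 were picked for H3K9ac in both controls, and the 13796 were not. A region with either pattern had p = 0.0286 in a two-sided exact test over the 8 libraries, the smallest value that 4 against 4 allows. Of the 13796 regions, 592 had an unadjusted p under 0.05, and the smallest Benjamini-Hochberg adjusted p was 0.666 by the same exact test, so 0 regions passed adjustment. These calls therefore name patterns and not single regions that passed a test. Of 947 distal H3K9cr regions present in all controls and absent in all UUO libraries, 76 (8.03%) overlapped a lost H3K9ac region, and 78 lost regions (5.28%) overlapped one of them. The same overlap over all distal regions is not given, so these counts do not tell whether it was more or less than elsewhere.

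**Figure D3:**
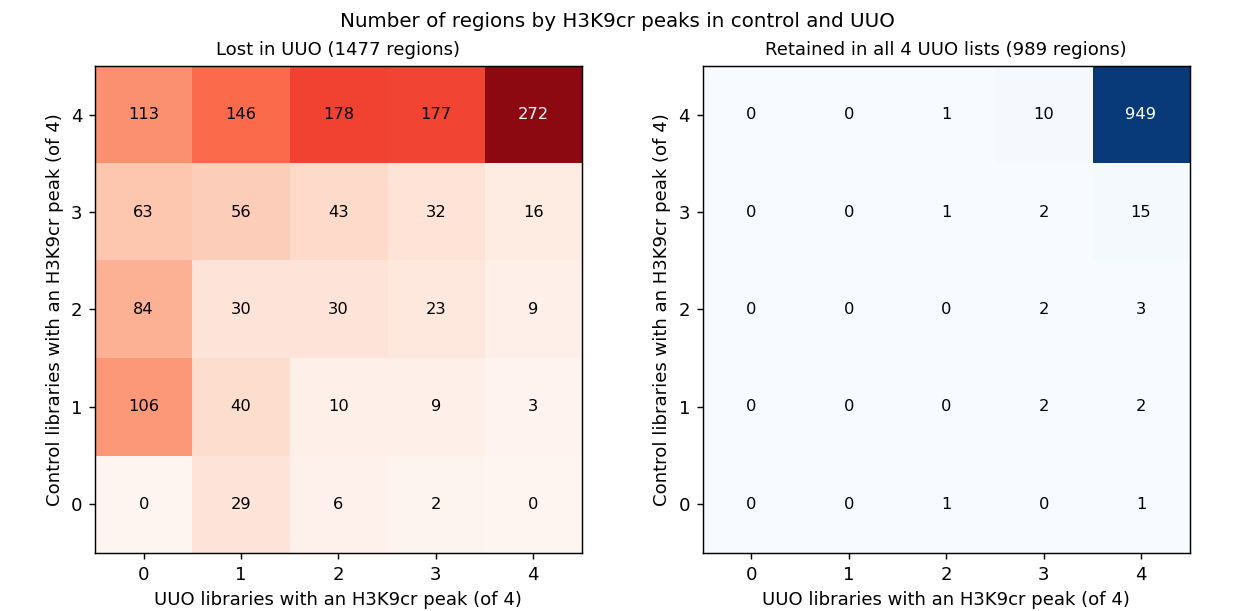
Number of regions by how many of 4 control libraries (y axis) and 4 UUO libraries (x axis) had an H3K9cr peak, for the 1477 regions that lost H3K9ac in UUO (left) and the 989 retained regions (right), with darker cells holding a larger share. Lost regions spread along the top row, from 113 without H3K9cr in UUO to 272 with it in all 4, and 949 retained regions sit in the top right cell.

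Where H3K9cr remained in all 8 libraries, its peaks were shorter in UUO. At these 272 lost regions the median H3K9cr peak was 1661.5 and 1607 bp in the WT control libraries and 2748 and 1932.5 bp in the ACSS2-/- control libraries, against 1250.5 and 857 bp in WT UUO and 1042 and 891.5 bp in ACSS2-/- UUO. All 4 control medians were above all 4 UUO medians. At the 949 retained regions with H3K9cr in all 8 libraries the medians overlapped, with 1655 to 2117 bp in control and 1376 to 1826 bp in UUO. Over all peaks of a list the median was 887 to 1017 bp in control and 812 to 889 bp in UUO.

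Deletion of ACSS2 was the other contrast of the study. In UUO the mean share of lost regions with H3K9cr was 48.1% in WT and 45.5% in ACSS2-/- kidneys, a difference of -2.64 points with overlapping libraries (56.8% and 39.4% against 49.8% and 41.2%). In control kidneys it was 75.3% in WT and 83.6% in ACSS2-/-, a difference of 8.26 points without overlap, and over all distal H3K9ac regions that difference was 9.38 points. With 2 against 2 libraries the smallest two-sided exact p is 0.33. Without WT UUO replicate 1 the difference in UUO was 6.1 points, and without WT UUO replicate 2 it was -11.4 points. Without ACSS2-/- UUO replicates 1 and 2 in turn it was -7.0 and 1.7 points. With every list cut to the same number of its longest peaks it was 0.7 points. Its sign thus changed with which library was left out and with the length of the lists.

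Region by region, H3K9cr present in both WT UUO and neither ACSS2-/- UUO library was found at 60 lost regions (4.06%, against 3.86% of the 13796), and the reverse at 45 (3.05%, against 1.86%). In control, 62 lost regions (4.20%) had it in both ACSS2-/- and neither WT library, against 6.91% of the 13796, and 7 (0.474%) had the reverse, against 0.681%. The shares in WT UUO were thus near those of all distal regions.

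The 10 lost regions with the longest control H3K9ac peaks lay 5 to 58 kb from the nearest gene end, and each lay inside a gene. The longest lay in Rab11fip3, an effector of Rab11 in endosome recycling (chr17:26006462-26012403), with H3K9ac peaks of 2022 bp in the WT control and 5942 bp in the ACSS2-/- control. Where 4 values are given for a condition, they are WT replicates 1 and 2 and then ACSS2-/- replicates 1 and 2, with 0 for no peak. In Rab11fip3 the H3K9cr peaks were 355 and 443 bp in WT control and 711 and 619 bp in ACSS2-/- control, and there were none in the 4 UUO libraries. Both marks were thus absent after UUO. In Sord, which encodes sorbitol dehydrogenase (chr2:122240810-122246183), H3K9ac spanned 2517 and 5374 bp, and H3K9cr 4780, 4699, 5416 and 4230 bp in control but 908, 0, 391 and 495 bp in UUO. The H3K9cr peak in Sord was shorter or absent in each UUO library.

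The region in Hlf, a bZIP transcription factor (chr11:90368389-90372209), had H3K9ac peaks of 3681 and 3718 bp in control. Its H3K9cr peaks were 5490, 4939, 10560 and 6090 bp in control and 4126, 1533, 881 and 3080 bp in UUO, present throughout but shorter. In Cpeb3, a regulator of translation (chr19:37075019-37079240), H3K9ac spanned 3848 and 2487 bp, and H3K9cr 7146, 5811, 6526 and 6048 bp in control and 543, 558, 621 and 0 bp in UUO. Here the longest UUO peak of H3K9cr was far below the shortest control peak. The region in Slc6a6, the taurine transporter (chr6:91725467-91731718), was uneven among controls, with H3K9ac of 644 and 6252 bp. The remaining 5 of the 10 lay in Spsb4, Tnrc6c, Wnk1, Efhd1 and Coq8a, the last nearest to the end of Cdc42bpa, and had H3K9cr in 4 of 4 control libraries and in 1 to 4 UUO libraries.

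Of the 113 regions that lost both marks, 102 lay inside a gene (90.3%), against 77.3% of all lost regions and 50.7% of the 272 with H3K9cr in all 8 libraries. Those with the longest H3K9ac, after Rab11fip3, lay in Ppara, Pde7a, a cAMP phosphodiesterase, Ak4, a mitochondrial adenylate kinase, Efhd1, a calcium-binding protein of mitochondria, Rapgef1, an activator of Rap1, Xpnpep1, an aminopeptidase, Trak1, a motor adaptor that carries mitochondria, Coq8a, which acts in coenzyme Q synthesis, and Rreb1, a zinc finger transcription factor. The control H3K9cr peaks that overlapped such regions were not only short ones, though a peak can extend beyond the region. In Xpnpep1 (chr19:53030232-53031977) they were 3407, 3414, 3480 and 3524 bp in control, and in Pde7a (chr3:19262833-19265231) 2328, 2781, 3165 and 3207 bp. At Ak4 (chr4:101424997-101427840) they were 1303 and 2384 bp in WT control and 5521 and 6097 bp in ACSS2-/- control. None of these regions overlapped an H3K9cr peak in any UUO library, but some H3K9cr remained beside them. The lost region at chr19:53032332-53033785 in Xpnpep1 had the same 4 control lengths and 980, 0, 410 and 429 bp in UUO. The one at chr4:101428464-101430300 in Ak4 shared the lengths 5521 and 6097 bp and had 348, 0, 0 and 0 bp in UUO. The surroundings of these long control peaks were thus not free of H3K9cr in UUO.

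Among the 272 regions with H3K9cr in all 8 libraries, those with the longest control H3K9ac lay in Hlf and Coq8a, in Smarca2, an ATPase of chromatin remodelling complexes (chr19:26752470-26755412), nearest to Slc38a9, a lysosomal amino acid sensor, and nearest to Taf1d, a subunit of the RNA polymerase I machinery. In Smarca2 the H3K9cr peaks were 4247, 4539, 4489 and 4541 bp in control and 3524, 1901, 2693 and 2154 bp in UUO. All 4 UUO peaks of H3K9cr in Smarca2 were shorter than all 4 control peaks.

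Members of proximal tubule lists stood at transporters, enzymes and transcription factors. Of 14 regions nearest to a proximal tubule transport gene with peaks in both controls, 9 were lost (64.3%) and 4 retained (28.6%). They lay nearest to 8 of the 40 genes of the list, among them Slc6a19 and Slc6a20b, which carry neutral amino acids and proline, Slc22a12, the urate transporter, Slc7a7, a cationic amino acid exchanger, and Slc27a2, which takes up fatty acids. The H3K9cr share over these 9 was 77.8% in control and 27.8% in UUO. At Slc22a12 (chr19:6547949-6550158) H3K9ac spanned 574 and 2036 bp, and H3K9cr 3578, 1663, 2068 and 2230 bp in control and 423, 0, 474 and 356 bp in UUO. All UUO values of Slc22a12 were below all control values. Slc6a19 held 2 lost regions, with H3K9cr in 3 and 4 of the control and in 1 and 2 of the UUO libraries.

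For proximal tubule enzymes and transcription factors, 11 of 27 regions (40.7%) were lost, with H3K9cr at 93.2% in control and 43.2% in UUO. The region in Ppara, the nuclear receptor that drives fatty acid oxidation (chr15:85742481-85747105), had H3K9ac of 1703 and 2672 bp in control. H3K9cr there was 1330, 807, 2406 and 874 bp in control and was in no UUO library. Near Pck1, which encodes the gluconeogenic enzyme PEPCK, 2 neighbouring lost regions differed in H3K9cr. The one at chr2:173177777-173179834 had 4184, 1849, 1642 and 5210 bp in control and none in UUO, and the one at chr2:173173010-173174711 had 7285, 5874, 7501 and 5935 bp in control and 2656, 3501, 1077 and 4177 bp in UUO. Hnf4a, which encodes a factor that keeps up tubular gene expression, held a lost region (chr2:163560684-163562962) with H3K9cr in 4 control and 2 UUO libraries. A region in Dpep1, a brush border dipeptidase named after its values were seen (chr8:123193795-123194856), had H3K9cr of 1085, 851, 668 and 649 bp in control and none in UUO.

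Of 16 regions nearest to a gene of fatty acid oxidation or crotonyl-CoA metabolism, 7 were lost (43.8%). Ppargc1a, the coactivator of mitochondrial biogenesis, had 2, and the one at chr5:51538362-51539949 had H3K9cr of 910, 1011, 6087 and 3762 bp in control and none in UUO. In Cpt1a, which brings fatty acids into mitochondria (chr19:3334989-3337509), H3K9cr was 1281, 1003, 2021 and 874 bp in control and 594, 0, 0 and 335 bp in UUO. Near Pdk4, which restrains pyruvate oxidation, it remained in all 4 UUO libraries at 457 to 1072 bp, against 3197 to 3388 bp in control. The other members of the list were regions nearest to Acaa2 and Hsd17b4, enzymes of beta-oxidation, and Acss2 itself. The Acss2 region, named after its values were seen, lay inside the gene (chr2:155538384-155539332) and had H3K9ac of 577 bp in the WT control and 610 bp in the ACSS2-/- control. Its H3K9cr peaks were 506, 455, 1583 and 351 bp in control and 537, 334, 0 and 0 bp in UUO, so that after UUO both WT libraries and neither ACSS2-/- library had one.

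The distal nephron list lost 14 of 24 regions (58.3%), with H3K9cr at 78.6% in control and 42.9% in UUO. They lay nearest to 12 genes, including Wnk1 and Wnk4, kinases that set sodium chloride transport, Klhl3, the adaptor that targets them for degradation, Cldn10, a claudin of the thick ascending limb, and Esrrb, a nuclear receptor of the distal nephron. In Wnk1 (chr6:119978733-119982291) H3K9ac spanned 2228 and 3559 bp and H3K9cr 744, 356, 1542 and 1499 bp in control and 0, 0, 340 and 0 bp in UUO. In Klhl3 (chr13:58064896-58068141) H3K9cr was 3278, 3214, 4413 and 4316 bp in control and 3812, 2456, 2577 and 1857 bp in UUO, so its ranges overlapped. Esrrb held 3 lost regions (chr12:86425915-86436288), with H3K9cr in 3, 3 and 1 control and 1, 1 and 0 UUO libraries.

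Transcription factors of the nephron lineage had the most lost regions of any list, 25 of 55 (45.5%), nearest to 18 of 39 genes. The list also had the most regions with peaks in both controls, and its share lost was near the 45.6% over all lists. H3K9cr was at 78.0% over these regions in control and 37.0% in UUO. Besides those above they included Rxra, the partner of nuclear receptors, Sim2, a bHLH factor, and Glis3, a zinc finger factor. In Sim2 (chr16:94092532-94094636) H3K9ac spanned 1917 and 1711 bp and H3K9cr 331, 566, 1417 and 565 bp in control and 0, 0, 312 and 0 bp in UUO. In Glis3 (chr19:28657513-28659362) H3K9cr was 2432, 3698, 4221 and 1328 bp in control and 1462, 588, 697 and 1142 bp in UUO. Some genes stand in more than 1 list, as Ppara, Hnf4a and Esrrb do.

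The remaining lists were markers of other cell types and states. The endothelial list lost 7 of 11 (63.6%), at Egfl7, Flt1, Eng, Tek and Erg, with H3K9cr at 42.9% in control and 21.4% in UUO, and the podocyte list 3 of 9 (33.3%), at Podxl and Magi2. The injured tubule list lost 2 of 7 (28.6%), at Itgb6 and Dcdc2a, the stroma list 1 of 4, and the leukocyte and sex-biased lists 0 of 3 and 0 of 1. The stroma region was nearest to Pdgfra but lay 179586 bp from its end and outside any protein-coding gene. It had H3K9cr in 4 of 4 control and 4 of 4 UUO libraries. Over all lists, 68 of 149 regions (45.6%) were lost, against 33.0% of all 4474. Those 68 were 4.6% of the lost regions and lay nearest to 55 genes. The lists were drawn up with results of these data known and regions of a gene are not independent, so the shares are descriptions without a test.

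**Figure D4:**
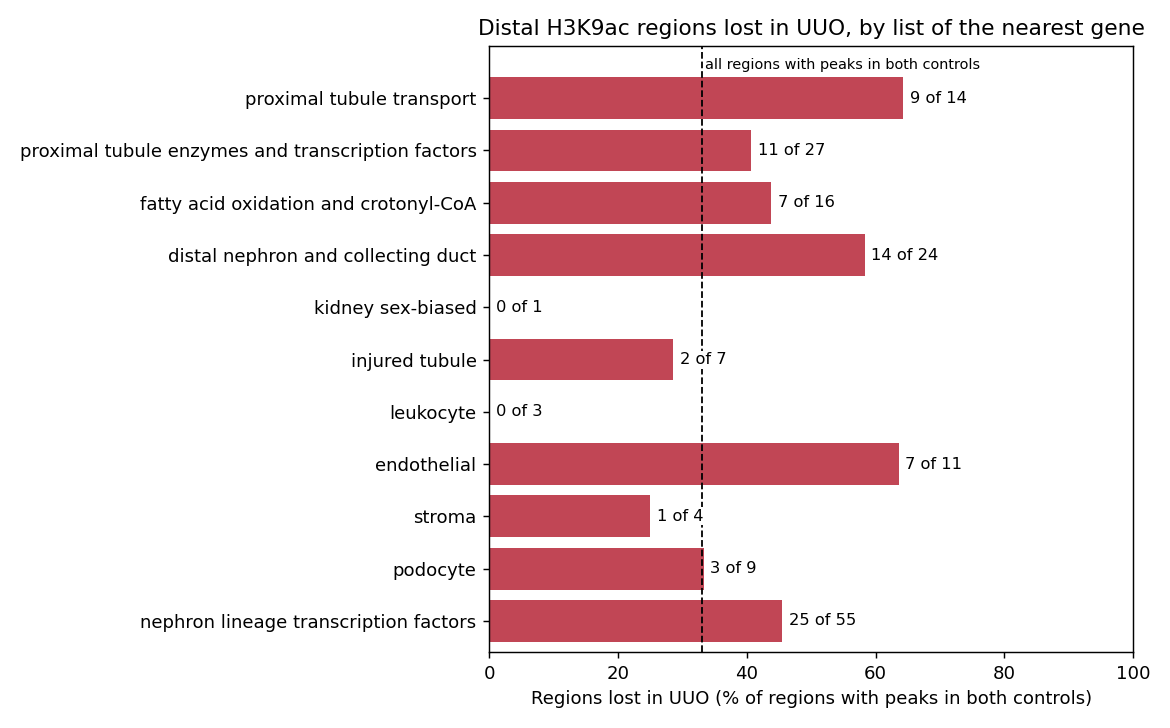
Share of distal H3K9ac regions with peaks in both controls that were lost in UUO (x axis, %), by list of the nearest protein-coding gene (y axis), with the number lost of the number with peaks beside each bar and a dashed line at the share over all 4474 regions (33.0%). Transport, distal nephron and endothelial lists lie farthest above the line, with 9 of 14, 14 of 24 and 7 of 11, and lists under 10 regions rest on few values.

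At most of the nearest genes H3K9ac was kept at a gene end. The 1477 regions were nearest to 1065 protein-coding genes, of which 906 had H3K9ac within 3 kb of a gene end in both controls, and at 803 of these (88.6%) it was in all 4 UUO lists and at 14 in none. Over all protein-coding genes the share in all 4 was 86.3%. At the ends of the 1065 genes H3K9cr was present at 87.7% to 90.7% of genes in control and 85.5% to 88.4% in UUO libraries, so the ranges overlapped. Of regions at gene ends with H3K9ac in both controls, 860 of 13129 (6.55%) had H3K9cr in at least 1 library and H3K9ac in no UUO list.

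Of the 55 list genes, 49 had H3K9ac at a gene end in both controls, 37 of these had it in all 4 UUO lists, and Ppargc1a alone had it in none. H3K9cr at the ends of Ppargc1a was in 4 of 4 control and 3 of 4 UUO libraries. For Slc22a8, an organic anion transporter named after its values were seen, H3K9ac at a gene end was in 2 of 2 control and 1 of 4 UUO lists, and H3K9cr in 4 of 4 and 1 of 4. Ppara, Pck1, Cpt1a and Wnk1 kept both marks at a gene end in every library, although their distal regions had no H3K9ac in UUO.

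The lost regions lay inside a gene in 77.3% of cases, against 78.9% of retained and 77.0% of all distal regions, and at a median of 17.7 kb from the nearest gene end (middle range 8.69 to 39.9 kb). The share inside genes thus did not set them apart. Within 3 kb of a RefSeq start, however, lay 4.74% of lost and 42.8% of retained regions. It was 16.1% of the 4474 regions with peaks in both controls and 6.84% of all distal regions. Between 26.9% (chromosome 17) and 38.3% (chromosome 10) of the regions with peaks in both controls were lost on each autosome. Of the 1065 nearest genes, 789 had 1 lost region and 34 had at least 4, which together held 151. Within 12.5 kb of another lost region lay 24.5% of the lost regions. Within their own sets it was 8.80% of retained regions, 39.4% of the 4474 and 64.3% of all distal regions. The sets differ in number, so these shares do not show that lost regions cluster. Exons and introns are not told apart here.

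The most lost regions, 10, stood in Cgnl1, which encodes paracingulin, a protein of epithelial cell junctions. They were spread over 168 kb (chr9:71636293-71804088), all inside the gene, and made up 10 of its 13 distal regions with peaks in both controls, with 0 retained. H3K9cr was present at 8 and 10 of the 10 in WT control and at 10 and 9 in ACSS2-/- control, and at 4 and 2 in WT UUO and 5 and 5 in ACSS2-/- UUO. Each UUO library thus had fewer than any control. At 3 neighbouring regions, chr9:71636293-71637368, chr9:71638503-71639571 and chr9:71640008-71641632, the ACSS2-/- control libraries each had 1 H3K9cr peak across all 3 (7443 and 6682 bp), while the longest H3K9cr peak there in UUO was 924 bp. A block of H3K9ac present in all 6 lists lay within 3 kb of the end of a lncRNA annotated inside Cgnl1 and so was not among the distal regions.

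**Figure D5:**
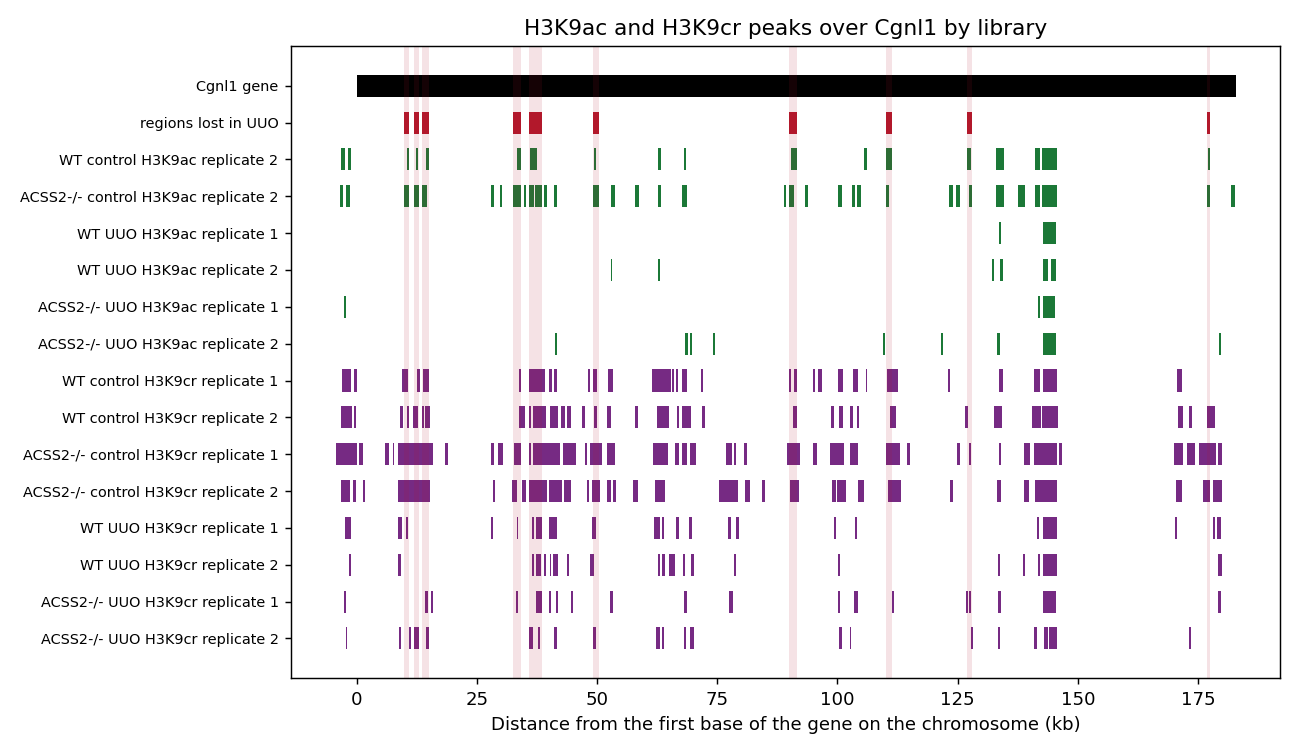
Peaks of each library (rows, green for H3K9ac and purple for H3K9cr) over the Cgnl1 gene (black), with the 10 regions that lost H3K9ac in UUO in red and shaded (x axis, kb from the first base of the gene on the chromosome). H3K9ac covers the shaded regions in both controls and in no UUO library, and H3K9cr covers 8 to 10 of them in control and 2 to 5 in UUO.

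Igf1r, the receptor of insulin-like growth factor 1, had 7 lost regions, of 10 with peaks in both controls and 0 retained. H3K9cr at these regions was present on average in 4.0 of 4 control and 3.0 of 4 UUO libraries, and no region was without it in UUO. In the region at chr7:68070040-68071552 H3K9cr spanned 6920, 6663, 18106 and 7831 bp in control and 2650, 0, 5042 and 2621 bp in UUO. Several Igf1r regions share 1 H3K9cr peak in a library and are not independent. Msi2, an RNA-binding protein, had 6 lost regions of 12, with H3K9cr in 3.5 control and 1.83 UUO libraries on average. Iqsec1, an exchange factor for Arf6, had 5 of 9 with 2.4 and 0.40, and Trak1 5 of 10 with 3.2 and 1.0. Nedd4l, the ubiquitin ligase that limits the epithelial sodium channel, had 5 of 8 with 3.8 and 3.0, and 5 more lay in Tbc1d1 nearest to Gm46913, with 4.0 and 2.0. The other 27 genes had 4 each: App, Col27a1, Dhrs3, Ephb2, Fam102a, Fam107a, Flrt1, Hlf, Hspg2, Itpr1, Kazn, Myo10, Ptprd, Rapgef2, Rbpms, Rgl1, Rreb1, Shb, Slc6a6, Smim38, Snx29, Snx8, Sufu, Tanc1, Timp3, Zdhhc17 and Zmiz1. These were 4 of 4 regions with peaks in both controls at Ephb2, Fam107a, Smim38 and Zdhhc17. They were 4 of 13 at Shb, 4 of 14 at Itpr1, 4 of 16 at Zmiz1 and 4 of 17 at Rbpms, and the rest lay between. A count of 4 thus does not by itself mean a high share lost.

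Of those 27, Col27a1, a fibrillar collagen gene, had the longest control peaks, with a median of 1958.8 bp over its 4 lost regions, all within 14.8 kb. In the region at chr4:63219618-63223712 H3K9cr was 3515, 2582, 3830 and 8535 bp in control and 0, 0, 0 and 367 bp in UUO. At Hspg2, which encodes perlecan, H3K9cr was in 2.5 libraries on average in control and in UUO, and at Fam107a, Smim38 and Snx29 it was in 3.25, 3.75 and 3.0 UUO libraries against 3.5, 4.0 and 3.25 in control. Rapgef2 and Fam102a each had 3 of 4 lost regions without H3K9cr in any UUO library. Genes with several lost regions thus differed in how many UUO libraries had H3K9cr.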

How the data were processed

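H3K9cr (8 libraries) and H3K9ac (6 libraries) were measured by ChIP-seq in whole kidney. According to the methods, the authors cleaned reads, aligned them with Bowtie2 to mm10, removed organelle reads, duplicates and reads of mapping quality under 30, and called peaks per library with MACS2 at a q-value under 0.05. Tool versions are not given in the sources used here, nor is the input that MACS2 compared with. The deposited lists hold peak positions, with no count, score or height, so no count model could be fitted and depth is unknown.

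Peaks were merged and overlapped (at least 1 bp) in Python 3.11.15 with numpy 2.4.6 and pandas 2.3.3. Overlaps were checked with bedtools 2.31.1 (0 of 4 values differed) and the calls tested on simulated data. Genes (47038 on autosomes, 20661 protein-coding) and start windows came from RefSeq GRCm38.p6, without a genome sequence, so motifs were searched in start windows in place of the planned regions. Of 316 list genes, 313 matched.

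The regions and gene lists were chosen with earlier results of these data known. Named were the 10 regions with the longest mean control H3K9ac peak, up to 5 genes per list, genes with at least 4 regions, up to 10 regions that lost H3K9cr and up to 5 with it in all 8 libraries, ordered by that length. SciPy 1.17.1 gave the exact tests. Same-numbered libraries of different groups did not deviate together (correlations of replicate deviations of -0.023 to 0.023 over 6 pairs of groups), so the numbers were not used as pairs. Different groups are different mice, so these correlations cannot show whether libraries of the 2 marks shared an animal. No 2 of the 14 lists were identical. Some genes and a motif of the lists are not reported here. Alternatives changed the window, overlap, merging, list length, peak length, genes and libraries.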

Additional observations from a re-analysis of the deposited data

How the results depend on the processing

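With every list cut to its longest peaks (15988 for H3K9ac, 27530 for H3K9cr) 414 regions were lost, 33 of them also lost H3K9cr, 1 gained it, 83.3% lay inside a gene and 20 were nearest to a list gene. With control peaks of at least 1 kb the values were 146, 15, 0, 82.9% and 10. The share inside a gene was 74.8% with 1 kb windows, 80.0% with 5 kb windows and 72.4% with protein-coding genes only, and with peaks merged across 500 bp 1 region gained H3K9cr. Leaving out 1 library at a time gave 1437 to 6091 lost regions, the highest without the WT control H3K9ac library and 3397 without the ACSS2-/- control one. It gave 114 to 348 that also lost H3K9cr (348 and 249 without those libraries, 185 without WT UUO H3K9cr replicate 1), 0 to 6 that gained it, 65 to 254 near list genes (254 and 167 without those H3K9ac libraries), a control minus UUO share of H3K9cr of 26.7 to 36.3 points and an ACSS2-/- minus WT share in UUO of -11.4 to 6.1 points. The lowest of the former, 26.7, came without ACSS2-/- UUO H3K9ac replicate 2. In 24 of 24 alternatives every control share was above every UUO share. Leaving out regions near RefSeq starts was chosen after seeing the data and gave 1407 regions and 32.7 points. The causes of these changes were not tested, beyond the fewer peaks or libraries that an alternative holds.

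Taking the replicate number as a block, the mean of the paired differences in H3K9cr share was 32.7 points. With 2 libraries in each group this equals the difference of means by arithmetic, so it is no check of that difference. With the block 0 regions could pass, since 36 arrangements allow no exact p below 0.0556. Peak lists without height limit all results: a peak just under the threshold of the peak caller counts as absent, and lists with more peaks detect more regions.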

Other observations

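Beyond the regions described above, 141 distal regions had H3K9ac in both controls, in no UUO list, and no H3K9cr in any of the 8 libraries. Their control H3K9ac peaks were shorter, with a median of 568 bp against 741.5 bp for those with H3K9cr, and 82.3% lay inside a gene.

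At gene ends, 860 regions had the same H3K9ac pattern together with H3K9cr in at least 1 library. Their median control H3K9ac peak was 793 bp, and H3K9cr was present at 77.3% of them in control and 46.9% in UUO libraries on average, beside 79.5% and 46.8% at the distal regions.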
